A study of Mus musculus with 8 samples.

Results

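The Toll-like receptors and their adaptors were followed across early B lymphopoiesis and after loss of Erg. The group held 10 named genes, *Tlr1*, *Tlr2*, *Tlr3*, *Tlr4*, *Tlr7*, *Tlr9*, *Tlr12*, *Unc93b1*, *Myd88* and *Irak4*, and all 10 were matched by symbol to an Entrez Gene identifier among the 27179 identifiers of the deposited count table. RNA had been sequenced from cells sorted from mouse bone marrow, with 2 libraries in each of 4 groups. Pre–proB, proB and preB cells came from Ergfl/fl mice, and a further group of pre–proB cells came from Rag1CreT/+;ErgΔ/Δ mice, called Erg-deficient below. Both floxed *Erg* alleles were present in all controls, which lacked Cre, so the genotypes differed in *Rag1Cre* as well as in *Erg*. *Rag1Cre* is active from lymphoid progenitors onwards, and was used to delete *Erg* within that lineage. Per the study's methods the mice used for these libraries were 7 to 10 weeks old. The study as a whole used both sexes and a C57BL/6J background, and the sex of the mice behind these libraries was not given. The sorts took cells positive for B220 and negative for IgM, IgD, NK1.1 and CD11c, and stages were separated by surface markers that included CD43 and CD24.

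Toll-like receptors are transmembrane sensors of microbial molecules. *Tlr1*, *Tlr2* and *Tlr4* act at the cell surface on lipopeptides and lipopolysaccharide, whereas *Tlr3*, *Tlr7* and *Tlr9* sense RNA or DNA inside endosomes, which they reach with the chaperone encoded by *Unc93b1*. *Tlr12* is an endosomal receptor for protozoan profilin. On ligand binding most of them recruit the adaptor Myd88, which brings in the kinase Irak4 and leads to NF-κB and interferon regulatory factor activity. B cells and plasmacytoid dendritic cells are the classic sites of *Tlr7* and *Tlr9* expression.

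On GRCm38 the surface receptor genes lie at chr5:64924680-64933600 (*Tlr1*), chr3:83836272-83841824 (*Tlr2*) and chr4:66827551-66846581 (*Tlr4*). The endosomal receptor genes lie at chr8:45395665-45411075 (*Tlr3*), chrX:167303380-167330574 (*Tlr7*), chr9:106222598-106226876 (*Tlr9*) and chr4:128615446-128618619 (*Tlr12*). *Unc93b1* lies at chr19:3935158-3949340, *Myd88* at chr9:119335934-119340018 and *Irak4* at chr15:94543613-94568317. RefSeq promoter windows (GRCm38.p6), reaching from 250 bases before to 50 bases after a transcription start, were found for 7 of the 10 genes, with 8 windows in all. *Tlr4*, *Tlr7* and *Unc93b1* were not matched. Erg belongs to the ETS family of transcription factors, and the windows were searched on both strands for the ETS core GGAAGT, the octamer ATGCAAAT, the interferon regulatory factor motif GAAANNGAA and the Ebf1-type palindrome CCCNNGGG. Of all 32851 windows in the table, 23.8% held GGAAGT, 1.74% ATGCAAAT, 8.56% GAAANNGAA and 13.7% CCCNNGGG. The 8 windows held GGAAGT in 5 cases and each of the other motifs in 1 case, *Tlr9* for the octamer, *Myd88* for GAAANNGAA and *Tlr12* for CCCNNGGG. The windows without GGAAGT, a second one of *Tlr1* (chr5:64932650-64932949) and those of *Tlr3* and *Irak4*, held none of the motifs. *Tlr3* and *Irak4* were also lower in proB than in pre–proB cells. These windows are not printed, nor is that of *Tlr2*, so every window printed holds GGAAGT. *Tlr9*, *Tlr12* and *Myd88*, with lower RNA in proB than in pre–proB cells, and *Tlr1*, which was higher, are shown. The first 3 motifs are in capitals on either strand (GGAAGT reads ACTTCC on the opposite strand). No matches overlapped in them. A match describes letters and is not evidence of binding.
*Tlr9* promoter, chr9:106222348-106222647, plus strand: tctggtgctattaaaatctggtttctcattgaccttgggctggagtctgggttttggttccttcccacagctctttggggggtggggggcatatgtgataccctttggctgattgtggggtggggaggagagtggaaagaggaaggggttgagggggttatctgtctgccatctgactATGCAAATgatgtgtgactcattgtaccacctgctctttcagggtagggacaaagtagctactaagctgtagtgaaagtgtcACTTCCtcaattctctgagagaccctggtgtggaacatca
*Tlr12* promoter, chr4:128618570-128618869, minus strand: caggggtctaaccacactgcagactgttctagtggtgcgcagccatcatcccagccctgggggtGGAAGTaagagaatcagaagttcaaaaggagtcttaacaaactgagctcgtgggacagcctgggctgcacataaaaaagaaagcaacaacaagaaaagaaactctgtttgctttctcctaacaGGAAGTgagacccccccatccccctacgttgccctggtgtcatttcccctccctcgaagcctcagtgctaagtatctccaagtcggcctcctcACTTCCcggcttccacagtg
*Myd88* promoter, chr9:119339969-119340268, minus strand: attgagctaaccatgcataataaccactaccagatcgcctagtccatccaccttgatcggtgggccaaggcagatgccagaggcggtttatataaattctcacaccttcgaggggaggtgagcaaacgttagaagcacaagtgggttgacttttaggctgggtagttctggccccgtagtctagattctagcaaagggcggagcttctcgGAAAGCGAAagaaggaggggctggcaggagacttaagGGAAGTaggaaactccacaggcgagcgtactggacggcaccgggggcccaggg
*Tlr1* promoter, chr5:64933509-64933808, minus strand: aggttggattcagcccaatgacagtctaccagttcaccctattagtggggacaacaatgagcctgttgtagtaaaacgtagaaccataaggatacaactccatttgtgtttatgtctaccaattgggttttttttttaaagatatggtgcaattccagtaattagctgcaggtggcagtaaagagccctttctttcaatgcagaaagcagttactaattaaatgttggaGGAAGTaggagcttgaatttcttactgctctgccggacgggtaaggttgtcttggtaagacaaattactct

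Library totals ranged from 15565381 to 18457632 counts, at which 3 counts correspond to 0.157 to 0.194 counts scaled to library size (CPM). *Erg* itself lay at 69.8 and 25.1 CPM in Ergfl/fl pre–proB cells and at 2.49 and 2.58 CPM in Erg-deficient ones. *Ebf1*, a B lineage transcription factor gene, lay at 59.7 and 21.2 CPM in Ergfl/fl pre–proB libraries. It lay at 252 and 257 CPM in proB libraries and at 284 and 313 CPM in preB libraries. Of 10 early B cell markers 9 were called higher in proB than in pre–proB cells, against 36.2% of all genes (edgeR). From proB to preB cells 2 of them rose and 3 fell, against 29.0% and 29.9% of all genes. *Ebf1* was not called at that step (edgeR, log2 fold change 0.27, adjusted p = 0.476). The pre–proB libraries also held the highest RNA of plasmacytoid dendritic cell markers. *Siglech*, which encodes a lectin of these cells, lay at 3890 and 3790 CPM in Ergfl/fl pre–proB, 46.9 and 57.4 CPM in proB, 11.1 and 11.4 CPM in preB and 3930 and 4500 CPM in Erg-deficient pre–proB libraries. The 10 markers of that list summed to 14300 and 15300 CPM in Ergfl/fl pre–proB and 16500 and 16900 CPM in Erg-deficient pre–proB libraries. They summed to 1320 and 1280 CPM in proB and 2750 and 2790 CPM in preB libraries, and no marker was at 0 in any library. *Spib*, which B cells also use, made up most of the preB sum, at 802 and 718 CPM in proB and 2340 and 2360 CPM in preB libraries. From proB to preB cells 7 of the 10 markers fell and 1 rose at an adjusted p below 0.05 (edgeR), against 29.9% and 29.0% of all genes. *Itgax*, which encodes the CD11c used for exclusion in the sort, lay at 329 and 401 CPM in Ergfl/fl pre–proB cells. All 10 markers of that list were lower in proB than in pre–proB cells, as were most Toll-like receptors below, whereas *Tlr1* and *Tlr4* were higher. *Tlr1*, *Tlr9* and *Tlr12* rose from proB to preB cells, where most of these markers fell. The part of these markers in the values below was not tested. In bulk RNA, fewer cells of a type and less RNA per cell cannot be told apart.

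Levels of different genes were compared as FPKM, CPM per kilobase of annotated exon. In Ergfl/fl pre–proB cells *Unc93b1* was highest with 412 and 425 FPKM, followed by *Tlr7* with 79.6 and 88.7 FPKM and *Tlr9* with 72.6 and 81.8 FPKM, whose libraries overlapped. *Tlr12* (44.4 and 55.4 FPKM) and *Myd88* (38.3 and 39.7 FPKM) came next, then *Irak4* (7.25 and 6.74 FPKM) and *Tlr2* (6.45 and 5.92 FPKM), while *Tlr4*, *Tlr1* and *Tlr3* each lay near or under 1 FPKM. In proB cells *Unc93b1* still led with a mean of 136 FPKM, but *Myd88* (14.2 FPKM) and *Tlr9* (6.70 FPKM) stood next, and the libraries of *Tlr12*, *Tlr4*, *Tlr2* and *Tlr7*, with means of 2.95, 2.75, 2.38 and 2.29 FPKM, overlapped from each gene to the next. In preB cells the order ran from *Unc93b1* (266 FPKM) through *Tlr9* (19.1 FPKM), *Myd88* (16.3 FPKM), *Irak4* (5.64 FPKM), *Tlr12* (5.00 FPKM), *Tlr1* (3.90 FPKM) and *Tlr2* (2.68 FPKM) to *Tlr7* (0.925 FPKM), *Tlr4* (0.800 FPKM) and *Tlr3* (0.0437 FPKM), with overlap only between *Tlr7* and *Tlr4*. Erg-deficient pre–proB cells had the same order of the 10 genes as Ergfl/fl pre–proB cells, with overlap of *Tlr7* with *Tlr9* and of *Tlr1* with *Tlr3*.

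The make-up of Toll-like receptor RNA differed between stages. Summed over the 12 mouse receptors, levels came to 208 and 237 FPKM in Ergfl/fl pre–proB libraries, 19.7 and 20.8 FPKM in proB libraries, 34.4 and 36.0 FPKM in preB libraries and 287 and 242 FPKM in Erg-deficient libraries. *Tlr7*, *Tlr9* and *Tlr12* together took 94.3% and 95.5% of that sum in Ergfl/fl pre–proB libraries, 59.8% and 58.1% of it in proB libraries, 69.3% and 72.7% of it in preB libraries and 96.2% and 95.2% of it in Erg-deficient libraries. *Tlr7* alone went from 38.2% and 37.5% in Ergfl/fl pre–proB libraries through 10.1% and 12.5% in proB libraries to 2.30% and 2.95% in preB libraries. *Tlr9* held 34.8% and 34.6% at the pre–proB stage, 35.8% and 30.4% at the proB stage and 53.8% and 54.5% at the preB stage. *Tlr1* held 0.195% and 0.190% at the Ergfl/fl pre–proB stage, 5.00% and 6.43% at the proB stage and 11.6% and 10.7% at the preB stage, and *Tlr4* peaked in proB libraries at 14.8% and 12.4%.

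**Figure D1:**
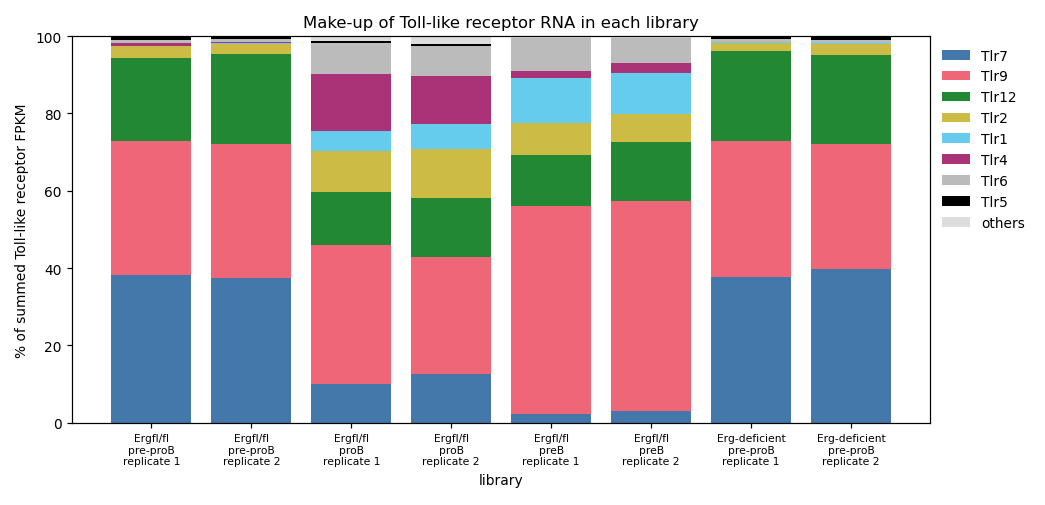
Stacked bars give, for each of the 8 libraries, the percentage of summed Toll-like receptor FPKM (12 receptors) taken by each receptor. *Tlr7*, *Tlr9* and *Tlr12* fill between 94.3% and 96.2% of the pre–proB bars of both genotypes, and *Tlr9* fills 53.8% and 54.5% of the preB bars.

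From pre–proB to proB cells, 8 of the 10 genes fell and 2 rose at an adjusted p below 0.05 (edgeR, quasi-likelihood F test, p-values adjusted by Benjamini-Hochberg over 13650 genes). Across all genes tested 73.0% were called in that comparison, 36.2% higher and 36.8% lower, so being called says little by itself and the sizes of the changes carry the description. The median log2 fold change was -1.5 over the 10 genes and 0.0040 over all genes. From proB to preB cells 6 of the 10 rose and 2 fell, against 58.9% of all genes called, 29.0% higher and 29.9% lower, with medians of 0.43 over the 10 genes and -0.00045 over all genes. Between preB and pre–proB cells 1 was higher and 8 were lower, against 70.7% of all genes, 36.5% higher and 34.1% lower, with medians of -1.2 and 0.038. The 3 comparisons share their libraries, so they are not independent of each other. *Tlr3*, counted as lower in proB and in preB than in pre–proB cells, entered the test mainly through its pre–proB libraries.

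**Figure D2:**
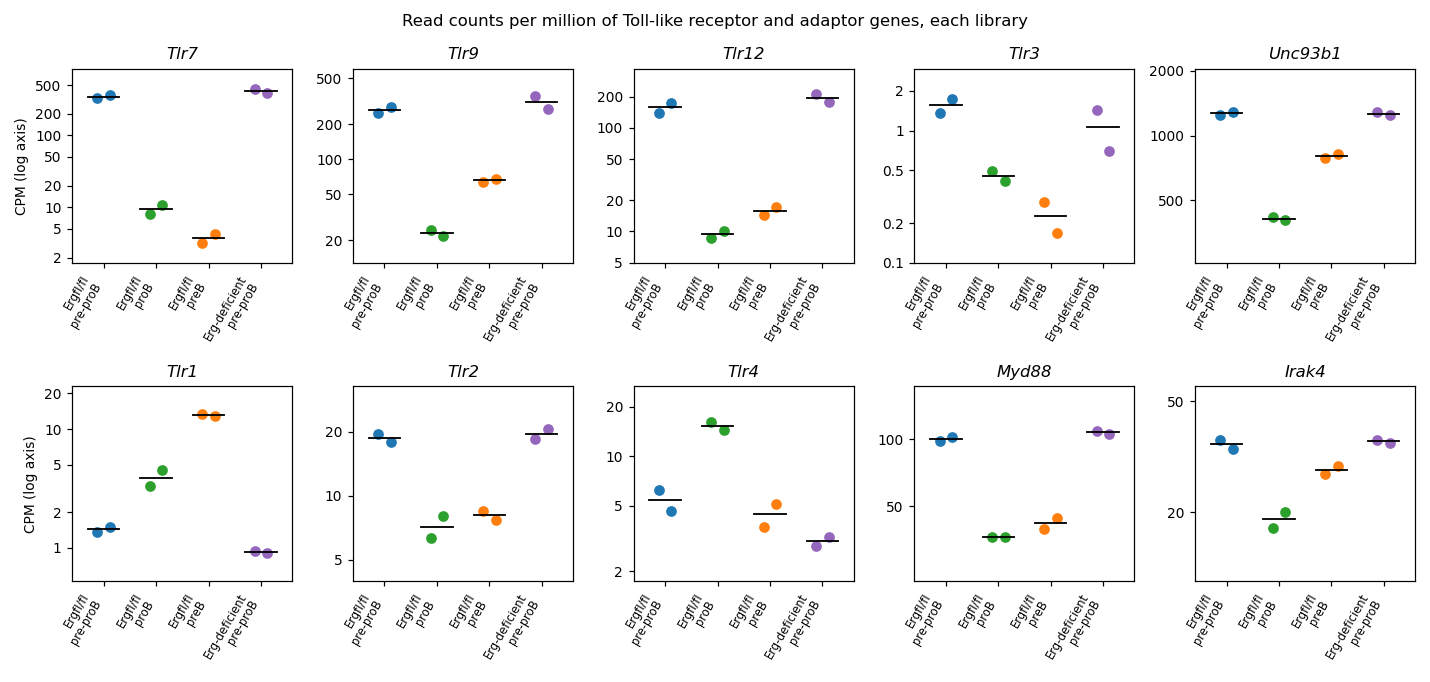
CPM on a log axis for each of the 10 genes in each library, with 1 point per library, the mean as a line and the 4 groups on the horizontal axis. *Tlr7* falls from 325 and 362 to 3.22 and 4.31 CPM along the Ergfl/fl stages while *Tlr1* climbs from 1.36 and 1.51 to 13.3 and 12.8 CPM, and *Tlr9*, *Tlr12* and *Unc93b1* are lowest in proB cells.

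*Tlr7*, the sensor of single-stranded RNA, showed the largest fall of the 10 genes. It lay at 325 and 362 CPM in Ergfl/fl pre–proB libraries, 8.14 and 10.6 CPM in proB libraries and 3.22 and 4.31 CPM in preB libraries. No library of one stage overlapped with another stage. Its log2 fold change was -5.17 ± 0.133 (SE) in proB against pre–proB cells, a 36.1-fold lower level (edgeR, adjusted p = 1.04e-08). A further fall of -1.28 ± 0.194 on the log2 scale followed in preB cells (edgeR, adjusted p = 0.000639).

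*Tlr9*, the sensor of unmethylated CpG DNA, fell and then partly came back. Its libraries lay at 252 and 285 CPM in Ergfl/fl pre–proB, 24.6 and 22.0 CPM in proB and 64.2 and 68.2 CPM in preB cells, with the preB libraries between the other stages and no overlap. The log2 fold change was -3.51 ± 0.0956 (SE) from pre–proB to proB cells, 11.4-fold lower (edgeR, adjusted p = 1.33e-08), and 1.54 ± 0.0959 from proB to preB cells, 2.92-fold higher (edgeR, adjusted p = 7.45e-06). PreB cells thus stood at 24.7% of the mean CPM of pre–proB cells for *Tlr9*, against 1.10% for *Tlr7*.

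*Tlr12*, the profilin receptor, was likewise lowest in proB cells. It lay at 141 and 176 CPM in Ergfl/fl pre–proB, 8.69 and 10 CPM in proB and 14.4 and 17.3 CPM in preB libraries, again without overlap. It fell by 4.06 on the log2 scale (SE 0.148) into proB cells, 16.7-fold (edgeR, adjusted p = 5.59e-08), and was 1.74-fold higher in preB than in proB cells, a log2 fold change of 0.80 ± 0.169 (edgeR, adjusted p = 0.00381).

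*Tlr3*, the sensor of double-stranded RNA, was scarce throughout. Its libraries held 21 and 29 reads in Ergfl/fl pre–proB (1.36 and 1.75 CPM), 9 and 8 reads in proB (0.495 and 0.418 CPM) and 5 and 3 reads in preB cells (0.287 and 0.168 CPM). The pre–proB libraries were above all others, and the lowest preB library was at the level of 3 reads. The log2 fold change was -1.74 ± 0.377 (SE) in proB against pre–proB cells (edgeR, adjusted p = 0.00285). *Tlr3* entered the test mainly through its pre–proB libraries, so this call rests on that stage. PreB and proB cells were not distinguished (edgeR, log2 fold change -0.95, adjusted p = 0.151, 95% interval -2.15 to 0.252).

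*Unc93b1*, the chaperone that nucleic acid-sensing receptors need, was by far the most abundant of the 10 genes. It lay at 1250 and 1290 CPM in Ergfl/fl pre–proB, 416 and 405 CPM in proB and 788 and 822 CPM in preB libraries. PreB libraries stood between the other stages without overlap. The log2 fold changes were -1.61 ± 0.0722 (SE) from pre–proB to proB (edgeR, adjusted p = 1.84e-07) and 1.01 ± 0.0712 from proB to preB cells, 2.01-fold higher (edgeR, adjusted p = 1.28e-05). Its preB mean was 63.5% of that in pre–proB cells.

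Among the surface receptors *Tlr1* rose from pre–proB to proB cells, where all 4 endosomal receptors fell, and it rose again into preB cells. It lay at 1.36 and 1.51 CPM in Ergfl/fl pre–proB (21 and 25 reads), 3.30 and 4.50 CPM in proB and 13.3 and 12.8 CPM in preB libraries. Each stage stood above the one before it without overlap. The log2 fold changes were 1.46 ± 0.231 (SE) into proB cells (edgeR, adjusted p = 0.000454) and 1.78 ± 0.184 into preB cells (edgeR, adjusted p = 8.09e-05), which made preB cells 9.40-fold higher than pre–proB cells.

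*Tlr2*, the partner of *Tlr1* in lipopeptide recognition, fell from pre–proB to proB cells. Its libraries lay at 19.4 and 17.8 CPM in Ergfl/fl pre–proB, 6.33 and 8.00 CPM in proB and 8.51 and 7.67 CPM in preB cells, where proB and preB libraries overlapped. It was 2.56-fold lower in proB than in pre–proB cells, a log2 fold change of -1.36 ± 0.146 (edgeR, adjusted p = 3.84e-05). PreB and proB cells were not distinguished (edgeR, log2 fold change 0.21, adjusted p = 0.264, 95% interval -0.139 to 0.560).

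*Tlr4*, the lipopolysaccharide receptor, peaked in proB cells. It lay at 6.22 and 4.64 CPM in Ergfl/fl pre–proB, 16.2 and 14.4 CPM in proB and 3.74 and 5.15 CPM in preB libraries, with the proB libraries above all others and overlap between pre–proB and preB. The log2 fold change was 1.52 ± 0.195 (SE) into proB cells (edgeR, adjusted p = 0.000120) and -1.74 ± 0.197 into preB cells (edgeR, adjusted p = 0.000128). PreB and pre–proB cells were not distinguished (edgeR, log2 fold change -0.23, adjusted p = 0.363, 95% interval -0.715 to 0.260). Myeloid markers (11 genes) summed to 248 and 190 CPM in Ergfl/fl pre–proB, 216 and 518 CPM in proB and 101 and 67.9 CPM in preB libraries. The proB library with 518 CPM of these markers was the lower of the pair for *Tlr4* and the higher for *Tlr1* and *Tlr2*. Of the 11 markers 6 were called higher and 2 lower in proB than in pre–proB cells, against 36.2% and 36.8% of all genes. In preB against proB cells 9 were called lower and 0 higher, against 29.9% and 29.0% of all genes (edgeR). *Tlr4* rose at the first step like these 6, but unlike *Mpo* and *Csf1r* (log2 fold changes -2.2 and -2.7). It fell at the second step like these 9. Among 5 macrophage markers 1 was called higher in proB than in pre–proB cells, *C1qa* (log2 fold change 1.12, 1.94 and 1.27 against 2.97 and 3.87 CPM), and 1 lower, *Cd68* (-4.55), and 0 were called between preB and proB cells (edgeR, also 0 at an unadjusted p below 0.05). The part of these markers in the *Tlr4* values was not tested.

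The adaptor gene *Myd88* and the kinase gene *Irak4* were both lower in proB than in pre–proB cells. *Myd88* lay at 98.6 and 102 CPM in Ergfl/fl pre–proB, 36.5 and 36.5 CPM in proB and 39.6 and 44.2 CPM in preB libraries, with pre–proB well above the later stages. The log2 fold change into proB cells was -1.44 ± 0.0734 (edgeR, adjusted p = 3.66e-07). The rise into preB cells was small, 0.24 ± 0.0759 on the log2 scale (edgeR, adjusted p = 0.0246), and it did not pass with DESeq2 (adjusted p = 0.0864), with total counts (0.0582) or without either proB library (0.0953 and 0.115) or preB replicate 2, which took the log2 fold change to 0.115 (adjusted p = 0.203).

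*Irak4* lay at 36.4 and 33.8 CPM in Ergfl/fl pre–proB, 17.6 and 20.1 CPM in proB and 27.5 and 29.2 CPM in preB libraries. The stages did not overlap, and proB was lowest. The log2 fold changes were -0.88 ± 0.0940 (SE) into proB (edgeR, adjusted p = 3.73e-05) and 0.63 ± 0.0946 into preB cells (edgeR, adjusted p = 0.000626). PreB cells differed from pre–proB cells by -0.25 ± 0.0914 on the log2 scale (edgeR, adjusted p = 0.0346), a call that was lost with DESeq2 (adjusted p = 0.0581) and without preB replicate 1 (0.171) or replicate 2 (0.0552).

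**Figure D3:**
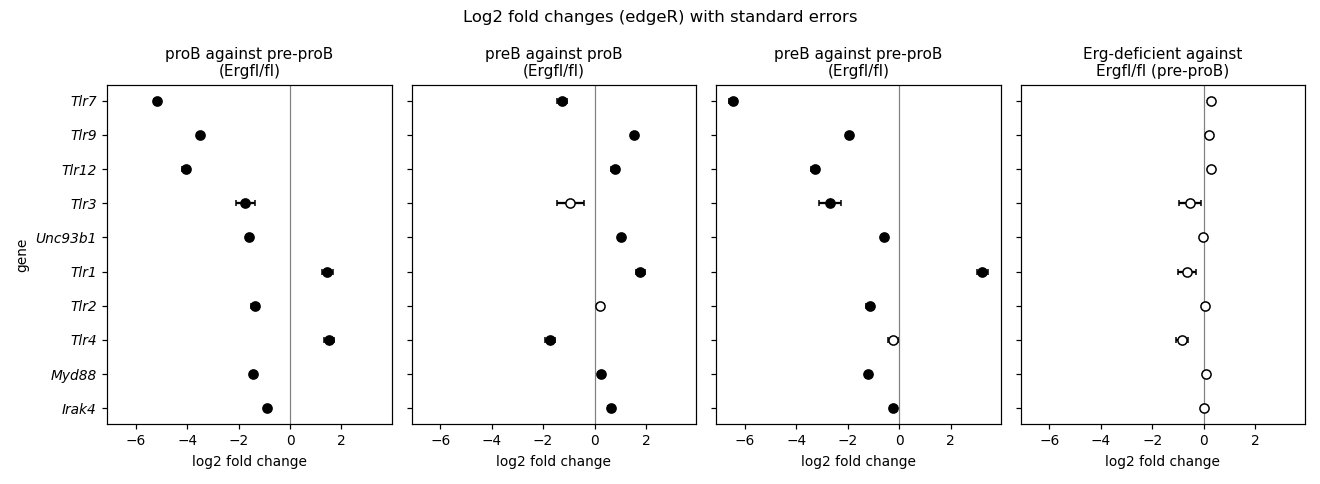
Log2 fold changes of the 10 genes with standard errors in the 3 stage comparisons and the genotype comparison, filled where the adjusted p was below 0.05. All 10 points are filled for proB against pre–proB, 8 for preB against proB, 9 for preB against pre–proB and 0 for the genotypes.

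The 10 genes were set beside the 10 markers of plasmacytoid dendritic cells as shares of the pre–proB mean. *Siglech*, *Ccr9*, *Cox6a2*, *Klk1* and *Pacsin1* stood at 1.36% to 1.87% of their pre–proB mean in proB cells and at 0.293% to 2.07% in preB cells. *Ly6c2* stood at 2.27% and 0.588%, and *Bst2*, an interferon-inducible surface protein gene, at 3.14% and 1.40%. *Tlr7* stood at 2.73% and 1.10%, inside the range of these 7 markers at both stages, *Tlr12* at 5.91% and 10%, and *Tlr9* at 8.68% and 24.7%. *Tlr1* stood at 272% and 910%, *Tlr4* at 282% and 81.8%, and *Unc93b1* at 32.4% and 63.5%. Transcription factors of the same marker list that B cells also use were less reduced, *Irf8* to 5.52% and 5.54%, *Tcf4* to 11.9% and 10.1% and *Spib* to 56.4% and then 175%. All 10 markers were lower in proB than in pre–proB cells, against 36.8% of all genes. In preB against proB cells 7 were lower and 1 higher, against 29.9% and 29.0% of all genes (edgeR).

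**Figure D4:**
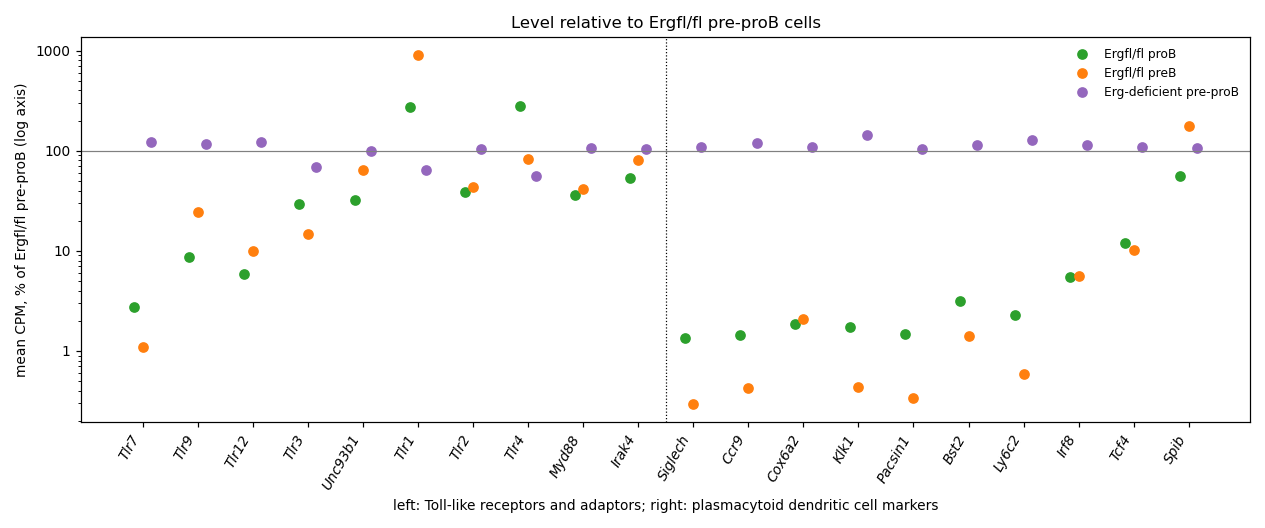
Mean CPM as a percentage of the Ergfl/fl pre–proB mean (line at 100, log axis) for the 10 genes on the left and the 10 plasmacytoid dendritic cell markers on the right, with 1 point per group of 2 libraries. In preB cells *Tlr9* lies at 24.7% and *Tlr12* at 10%, while *Siglech* lies at 0.293% and *Tlr7* at 1.10%. In Erg-deficient pre–proB cells the markers lie between 105% and 142%.

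Receptors and co-receptors outside the group were also measured. *Cd180* and *Ly86*, which encode a Toll-like receptor homologue of B cells and its partner, were abundant, at 526 and 577 CPM and 318 and 356 CPM in Ergfl/fl pre–proB libraries. They fell to 65.4 and 61.9 CPM and to 29.3 and 35.9 CPM in proB cells, log2 fold changes of -3.10 and -3.35, and rose to 87.8 and 85.4 CPM and to 53.9 and 66.4 CPM in preB cells, log2 fold changes of 0.48 and 0.92 (edgeR, adjusted p = 0.000944 and 0.000459 for the rises). *Tlr5*, the flagellin receptor, lay at 8.55 and 7.90 CPM in pre–proB, 0.330 and 0.314 CPM in proB and 1 read in each preB library. *Tlr6*, another partner of *Tlr2*, lay at 6.28 and 5.67 CPM, 6.00 and 6.07 CPM and 10.7 and 8.79 CPM along the stages and was higher in preB than in proB cells (log2 fold change 0.73, edgeR, adjusted p = 0.00447). *Ly96*, which encodes the Tlr4 co-receptor MD-2, lay between 3.05 and 4.83 CPM in all 8 libraries. *Cd14* held 16 and 12 reads in pre–proB and at most 4 reads in any proB or preB library. *Tlr8* and *Tlr11* were too low to test, and *Tlr13* was tested only among stages and not called. Of the 7 tested, 4 were called lower in proB than in pre–proB cells, against 36.8% of all genes, and 3 were called higher in preB than in proB cells, against 29.0% of all genes. *Tlr5*, with 6 reads in each proB and 1 read in each preB library, was also called lower in preB cells, at counts near the limit. *Tlr5* and *Cd14* passed the filter only through the pre–proB libraries, so the calls rest on that stage, and the first count dropped to 2 when either of these libraries was left out.

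Genes for trafficking and proteolytic processing of the endosomal receptors were also lower after the pre–proB stage. All 8 were lower in proB than in pre–proB cells, against 36.8% of all genes, with a median log2 fold change of -1.7, led by the lysosomal cathepsins that cleave the receptors. *Ctsl* fell by 5.56 on the log2 scale, from 916 and 974 CPM to 18.2 and 21.4 CPM, *Ctsb* by 4.02 and *Ctss* by 3.49, from 676 and 741 CPM to 57.3 and 67.6 CPM. *Cnpy3*, a chaperone of Toll-like receptors, fell by 1.67. From proB to preB cells 5 rose and 1 fell, against 29.0% and 29.9% of all genes, with log2 fold changes of 0.99 for *Slc15a4*, an endolysosomal transporter, 0.67 for *Ctss*, 0.45 for *Lgmn* and 0.45 for *Hsp90b1*, and -0.97 for *Ctsl*. In preB against pre–proB cells 7 were lower, against 34.1% of all genes (edgeR).

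The signalling genes downstream of the receptors did not move as 1 block. Of 30 listed and 29 tested, 6 were higher and 18 lower in proB than in pre–proB cells, against 36.2% and 36.8% of all genes, with a median log2 fold change of -0.31. *Irf7*, which drives type I interferon downstream of *Tlr7* and *Tlr9*, fell by 4.55 on the log2 scale, from 286 and 362 CPM to 12.3 and 15 CPM. *Irak2* fell by 3.61, *Irf5* by 1.80 and *Irak1* by 1.28. *Irak3*, which encodes an inhibitory kinase homologue, rose by 2.11, from 6.28 and 3.44 CPM to 20.0 and 21.2 CPM, and the bridging adaptor *Tirap* rose by 1.15, from 10.8 and 13.9 CPM to 28.6 and 25.8 CPM. *Ube2n*, a ubiquitin-conjugating enzyme gene, rose by 0.91 on the log2 scale from 64.8 and 69.7 to 128 and 121 CPM, and *Tab1*, a kinase partner gene, rose by 0.38. From proB to preB cells 20 rose and 5 fell, against 29.0% and 29.9% of all genes, with a median of 0.29. *Tnfaip3*, an inhibitor of NF-κB signalling, rose by 1.15, *Irf5* by 1.04, the ubiquitin ligase gene *Peli1* by 0.93 and *Traf6*, a ubiquitin ligase gene acting below Irak4, by 0.88. *Ikbke*, an IκB kinase gene, fell by 2.01 to 3.85 and 3.36 CPM. In preB against pre–proB cells 11 were higher and 13 lower, against 36.5% and 34.1% of all genes (edgeR). *Tirap* was 4.78-fold and *Traf6* 2.28-fold higher, while *Irf7* was 32.7-fold and *Ikbke* 9.58-fold lower.

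Loss of Erg was compared within pre–proB cells. None of the 10 genes was called by genotype (0 of 10, edgeR's quasi-likelihood test, against 1.16% of the 13005 genes tested), and DESeq2 and limma-voom also called 0. At an unadjusted p below 0.05 there were 2 of the 10, *Tlr4* and *Tlr7*, against 12.5% of all genes. The median log2 fold change was 0.046 over the 10 genes and 0.0055 over all genes. The libraries of the genotypes did not overlap for 5 of the 10, with *Tlr7*, *Tlr12* and *Myd88* higher and *Tlr1* and *Tlr4* lower in Erg-deficient cells, against 45.2% of all genes tested. With 2 libraries a group, an exact permutation test of a single gene could not reach a p under 0.33.

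The abundant endosomal receptors had positive log2 fold changes in Erg-deficient against Ergfl/fl pre–proB cells, and none was called. *Tlr7* lay at 441 and 391 CPM in Erg-deficient against 325 and 362 CPM in Ergfl/fl pre–proB libraries, which gave a log2 difference of 0.27 ± 0.0875 (edgeR, adjusted p = 0.267, 95% interval 0.0634 to 0.481). *Tlr12* lay at 213 and 177 CPM against 141 and 176 CPM, a log2 fold change of 0.29 (edgeR, adjusted p = 0.416, interval -0.0119 to 0.596). *Tlr9* lay at 352 and 273 CPM against 252 and 285 CPM, where the libraries overlapped, with a log2 fold change of 0.22 (edgeR, adjusted p = 0.539, interval -0.0838 to 0.514). Plasmacytoid dendritic cell markers stood at a median of 112% of the control mean, 10 of 10 with a positive log2 fold change and 0 of 10 called. *Tlr3* held 23 and 11 reads against 21 and 29, and its interval from -1.54 to 0.462 was the widest of the 10 genes.

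The intervals of *Myd88*, *Unc93b1* and *Irak4* were the narrowest of the 10 genes. *Unc93b1* lay at 1290 and 1240 CPM in Erg-deficient against 1250 and 1290 CPM in Ergfl/fl pre–proB libraries, with a 95% interval of the log2 fold change from -0.174 to 0.163. For *Irak4*, at 36.4 and 35.6 CPM against 36.4 and 33.8 CPM, the interval ran from -0.146 to 0.209, and for *Tlr2*, at 18.5 and 20.5 CPM against 19.4 and 17.8 CPM, from -0.205 to 0.325. These libraries overlapped between genotypes. *Myd88* was higher in both Erg-deficient libraries, at 109 and 106 CPM against 98.6 and 102 CPM, with an interval from -0.0517 to 0.239 (edgeR, adjusted p = 0.581).

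*Tlr4* and *Tlr1* were the genes with lower values in both Erg-deficient libraries. *Tlr4* lay at 2.86 and 3.22 CPM against 6.22 and 4.64 CPM, a log2 fold change of -0.84 ± 0.246 (edgeR, adjusted p = 0.217, 95% interval -1.43 to -0.254), and *Tlr1* at 0.932 and 0.901 CPM, 15 and 14 reads, against 1.36 and 1.51 CPM (edgeR, log2 fold change -0.65, adjusted p = 0.489, interval -1.44 to 0.148). Both genes were more abundant in Ergfl/fl proB than in Ergfl/fl pre–proB cells. Early B cell markers (10 genes) summed to 2150 and 1000 CPM in Ergfl/fl and to 375 and 486 CPM in Erg-deficient pre–proB libraries, 8 of 10 called lower, and the control library with 2150 CPM held the higher *Tlr4* and the lower *Tlr1*. Myeloid markers summed to 248 and 190 CPM against 137 and 109 CPM, 3 of 11 called lower, and NK cell markers to 206 and 205 CPM against 262 and 390 CPM, 5 of 8 called higher. Of all genes tested, 1.16% were called by genotype in either direction. The part of these markers in the *Tlr4* and *Tlr1* values was not tested.

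Around the receptors, 0 of 6 other receptors and co-receptors tested and 0 of 8 trafficking and processing genes were called by genotype (edgeR; 1 in each list had an unadjusted p below 0.05, *Ly86* and *Ctsl*, and DESeq2 called 0 and 1). *Cd180* lay at 593 and 603 CPM and *Ly86* at 378 and 400 CPM in Erg-deficient libraries, above 526 and 577 CPM and 318 and 356 CPM in controls. Of the 29 signalling genes 1 was called, *Irak3*, while 1.16% of all genes were called in this comparison. *Irak3* fell from 6.28 and 3.44 CPM to 0.870 and 0.644 CPM (edgeR, log2 fold change -2.67 ± 0.411, adjusted p = 0.0415, 6.37-fold lower). Its control libraries stood in the same order as the sums of the early B markers and of the myeloid markers. *Irak3* was also higher in proB than in pre–proB cells. The part of these markers in the *Irak3* values was not tested. The call was lost with limma-voom (adjusted p = 0.141), with edgeR's version 4 method (0.0701), with total counts (0.0505) and without Erg-deficient replicate 1 (0.207) or replicate 2 (0.234). Apart from *Irak3*, the log2 fold changes of the 29 signalling genes lay between -0.31 for *Sigirr* and 0.31 for *Irf7*. *Irf7* lay at 510 and 295 CPM in Erg-deficient libraries against 286 and 362 CPM in controls, which overlapped.

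The genes most like each receptor were sought by Pearson's r of log2(CPM + 0.5) over the 8 libraries, among 10827 genes reaching 5 CPM in at least 1 group. The 8 points fall into 4 groups, 2 of them pre–proB, so high values are common and no p is given. For *Tlr7* the 3 closest were *Ptprf* (r = 0.9998), *Rab11fip3* (0.9997) and *Bst2* (0.9997), the latter also on the plasmacytoid dendritic cell list. For *Tlr9* they were *Fkbp15* (0.9994), *Carmil1* (0.9992) and *Susd6* (0.9989), for *Tlr12* *BC147527*, *Cant1* and *Plbd2*, and for *Unc93b1* *Anks3*, *N4bp2l1* and *Sun1*. *Myd88* was closest to *Prcp*, *Jak2* and *Itgb2* (0.9991), *Tlr2* to *Naglu*, *Borcs5* and *Gm10790*, *Irak4* to *Tepsin*, *Snx19* and *Kctd11*, and *Tlr4* to *Nkd2*, *Pck2* and *Anxa1* (0.9885). *Tlr1* was closest to *Gh* (0.9977), *Zfp606* and *Tbc1d1*, and *Tlr3* had the weakest matches, *Ccdc62* (0.9786), *Zbtb34* and *Coro7* (0.9741).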

How the data were processed

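The authors sorted bone marrow populations, sequenced paired-end reads, removed adapters with Trim Galore, aligned to mm10 (GRCm38) with STAR and assigned them to Entrez genes with featureCounts, using the annotation built into Rsubread. Per the deposited table, values are whole-number counts without normalization for 27179 identifiers and 8 libraries, 2 per group. The STAR version, strandedness of counting and handling of multi-mapped reads were not given in the sources used here. Per the study's methods the replicates are biological, sorted from 2 mice of each genotype, so libraries of different stages may share a mouse. No source used here says which mouse gave which library, and the stage fit treats the libraries as independent. Depth, 15565381 to 18457632 counts, sets 3 counts at 0.157 to 0.194 CPM. These limits cover counting error only.

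Symbols came from RefSeq for 25275 identifiers. The 1904 identifiers without a symbol held 0.577% of counts and stayed in the fits. Genes were kept if 2 or more libraries of a fit reached 0.5 CPM, and were tested with edgeR 4.0.16 in R 4.3.3 (TMM, legacy quasi-likelihood test, Benjamini-Hochberg adjustment over all genes kept), in 1 fit of 4 pre–proB libraries and 1 fit of 6 Ergfl/fl libraries. *Tlr3* passed this filter mainly through its pre–proB libraries. CPM used TMM over 8 libraries. FPKM divided CPM by the union of GENCODE M21 exons, which understates genes with long rare exons. DESeq2 1.42.0, limma 3.58.1, other scalings, filters and fits, and leaving out each library served as alternatives. In simulated data with 4-fold changes (2 on the log2 scale) edgeR called 188 of 198 changed genes in the genotype design and 185 of 196 in proB against pre–proB, with 11.7% and 9.31% of calls on unchanged genes, more than the nominal 5%. Replicate libraries differed beyond sampling noise, with chi-squares per degree of freedom of 3.82 to 8.29.

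The 10 genes, the marker lists and the pathway lists were chosen with earlier results of these data known. All 10 genes and the other receptors are named, up to 4 called pathway genes with the lowest p in each direction and comparison, and the 3 genes of most similar pattern for each. *Ctsl*, *Sigirr* and *Irf7* by genotype and the single markers named were chosen after their values were seen. Figures were drawn with matplotlib 3.10.9.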

Additional observations from a re-analysis of the deposited data

How the results depend on the processing

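Under 14 alternatives for the genotype comparison and 16 for each stage comparison, the number of the 10 genes called stayed at 0 by genotype and at 10 in proB against pre–proB cells, and ranged from 7 to 8 in preB against proB and from 8 to 9 in preB against pre–proB cells. Of 620 single-gene values, 605 kept their direction and their side of the threshold, 8 lost their call (5 for *Myd88* in preB against proB and 3 for *Irak4* in preB against pre–proB cells, each given above) and 7 turned sign, all by genotype in genes whose estimate was close to 0. *Unc93b1* went from -0.01 to 0.00623 with all 8 libraries in 1 fit, and ranged from -0.0348 to 0.0232 with 1 library left out. *Irak4* went to -0.00314 with total counts and ranged from -0.0298 to 0.0830 with 1 library left out, and *Tlr2* from -0.0174 to 0.133. The cause was not tested. With the replicate number as a block 0 of the 10 genes were called by genotype. Same-numbered libraries of the Ergfl/fl stages deviated together with r = 0.12, 0.011 and 0.047, which does not show that the numbers pair samples. Over all genes, 151 were called by genotype, 265 with the block, 401 without Ergfl/fl pre–proB replicate 2, 107 without its replicate 1, 16 without Erg-deficient replicate 1 and 10 without its replicate 2, 400 with DESeq2, 41 with limma-voom, 88 with edgeR's version 4 method, 279 without a filter and 442 with all 8 libraries in 1 fit. A group reduced to 1 library took its spread from the remaining groups. For alternatives added after seeing the data, the signalling genes called by genotype ranged from 0 to 2, with 2 without Ergfl/fl pre–proB replicate 2. Other receptors called in preB against pre–proB cells dropped from 5 to 3 without either Ergfl/fl pre–proB library. Depth limits *Tlr3* and *Tlr1* most, since they held 3 to 29 and 14 to 231 reads per library.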
